A study of Zea mays with 229 samples.

Results

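In maize leaf protoplasts, 289 genes were listed as responding to both WRKY factors tested, WRKY36 and WRKY107, and to at most 4 of the 23 regulators in all. They were drawn from the 19787 genes that the authors' deposited table lists for any regulator. WRKY36 is the regulator Zm00001d049173 and WRKY107 is Zm00001d033965. The members were chosen from the edges themselves, an edge being a regulator and a gene listed as its target. Their presence in both lists and their low number of regulators are therefore the choice and not a finding. All 289 carry identifiers of the Zm00001d series, and none matched a symbol in the reference table used here, so they are described by the regulators that list them and by their place in the table.

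The assay, called TARGET, brings a plasmid with a transcription factor into protoplasts, which are plant cells without walls, and reads the transcripts of the sorted cells by 3' end sequencing. Protoplasts are described as made from etiolated second leaves of B73 seedlings. The WRKY groups and their empty vector controls thus share growth in the dark, wall digestion and the plasmid backbone. The regulator G2 was tested in more than a single batch. In the earlier of these, titles of the G2 and the empty vector libraries carry the label G2plant. What this label means is not stated, so whether those libraries share the same plant source is unknown. WRKY36 had 3 libraries with nitrogen (plusN) and 3 without (minusN) in the batch labelled 20210510, beside 3 empty vector (EV) libraries in each nitrogen condition. WRKY107 had 3 and 3 in the batch labelled 20210517, beside 4 empty vector libraries in each condition. The regulator is supplied from a plasmid in isolated cells, so the listed genes responded to an introduced factor, and whether the leaf's own WRKY proteins act on them is not measured by this design. In these bulk samples, fewer cells of a type and less RNA per cell cannot be told apart. No marker of leaf cells could be read, because the table holds no expression level.

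WRKY proteins are a large plant family of transcription factors with a zinc finger DNA-binding domain. They bind W-box elements, which have the core TTGAC, in the promoters of their targets. Family members are best known from Arabidopsis and rice for roles in immunity, leaf senescence and responses to drought and nutrient supply, and they act as activators or as repressors. No promoter or protein sequence was available here for the members, and no W-box was searched for.

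An edge in the authors' deposited table carries no direction, fold change, p-value or nitrogen condition. A member may therefore have risen in response to one WRKY factor and fallen in response to the other. A listing has no error attached, library depth is unknown, and nothing below rests on a test. Of the 229 libraries, 77 held the empty vector and 152 held 1 of 23 factor plasmids, in 11 batches. By the identifiers in the titles, 20 of the 23 regulators have a known plasmid, and the other 3 are given by identifier.

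The restricted genes were a small part of what the WRKY factors shared. WRKY36 had 4668 targets (23.6% of all listed genes) and WRKY107 had 6401 (32.3%). They shared 2947 genes, which is 63.1% of the WRKY36 list and 46.0% of the WRKY107 list. The 289 members made up 9.81% of these shared genes, 6.19% of the WRKY36 list and 4.51% of the WRKY107 list. Over all listed genes, 62.9% had at most 4 regulators, a share in which genes of a single regulator are included and from which nothing is read, because the rule used it.

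Most genes in both WRKY lists were listed for many other regulators. The median number of regulators was 11 for a gene of both WRKY factors and 3 for a listed gene. A gene of both lists has at least 2 regulators, whereas 5167 of the listed genes have 1. The medians therefore differ partly by this choice, and nothing particular to the WRKY pair is read from them. At least 12 regulators listed 1268 of the shared genes (43.0%), and at least 18 listed 173 of them. Among the members, 42 genes were listed for the WRKY factors alone, 113 for 1 further regulator and 134 for 2 further regulators. Just outside the limit, 136 shared genes had 5 regulators, close to the 134 just inside it. The number of genes therefore had no gap at the limit of 4.

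**Figure D1:**
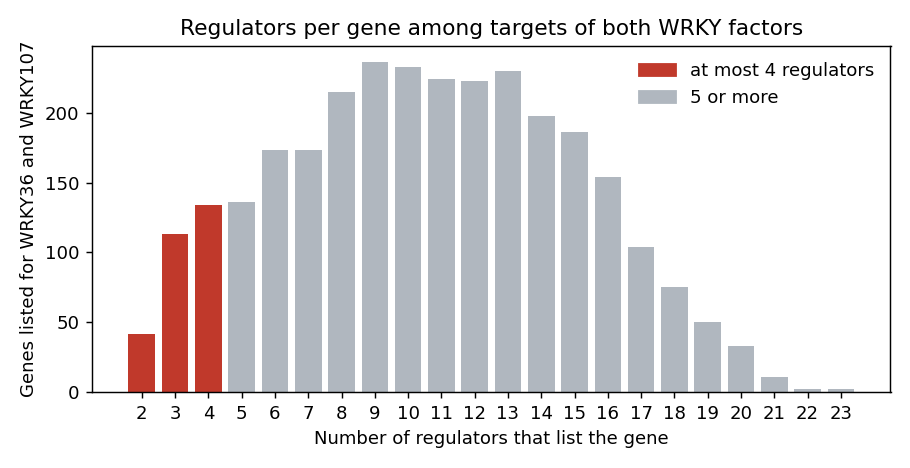
Number of genes listed for both WRKY36 and WRKY107 (vertical axis, genes) against the number of regulators that list them (horizontal axis, 2 to 23). Red bars are the members, with 42, 113 and 134 genes at 2, 3 and 4 regulators, and grey bars are shared genes with 5 or more, which begin at 136 genes.

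The same 289 members were set beside the few-regulator targets of each WRKY list. Their shares therefore differ only by the number of such targets. WRKY36 had 1049 targets with at most 4 regulators, and 27.6% of them were members. WRKY107 had 1929 such targets, and 15.0% of them were members. Among the targets with at most 4 regulators, 124 were listed for WRKY36 and no other regulator, and 333 for WRKY107 and no other. None of these can be a member.

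The WRKY genes themselves were not among the members. Neither WRKY factor listed the gene of the other. The WRKY36 gene was listed for WRKY36 itself and for NAC61, a factor of the NAC family. The WRKY107 gene was listed for WRKY107 itself and for G2, bHLH92 and Zm00001d003176. A listing for the gene's own plasmid can come from the plasmid's transcript, so it says nothing of self-regulation. Of the 23 regulators, 0 were members.

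The 247 members with a further regulator carried 381 further edges. NAC61 listed 83 of the 289 members (28.7%), the highest count, and it also has the longest list (41.9% of all listed genes). The basic leucine zipper factor bZIP9 listed 37 members (12.8%; background 40.8%). The homeodomain factor HB6 listed 34 (11.8%; background 33.7%). MYB121, of the MYB family, listed 33 (11.4%; background 32.8%), and NAC5 listed 32 (11.1%; background 30.6%). With at most 2 further regulators per member, the shares of all regulators add up to 381 edges over 289 members, so they are held down as a whole and are not read against the background one by one. These 5 regulators have the longest lists outside the WRKY pair and held 219 of the 381 further edges (57.5%).

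Smaller numbers of members were listed for the other regulators. Zm00001d032024 listed 29 members (background 23.7%), Orphan42 listed 27 (background 20.2%) and the chloroplast development factor G2 listed 24 (background 28.1%). MYB81 listed 16 (background 14.5%), bHLH92 listed 15 (background 18.6%), EREB115, an ethylene-responsive type factor by its name, listed 13 (background 13.9%), bHLH47 listed 9 (background 14.5%) and MYBR3 listed 8 (background 21.5%). At most 5 members were listed for each of the other 8 regulators. MYB34 listed 4 (background 22.2%), although its list is longer than that of Orphan42. GLK44 listed 5 (background 11.2%), as did MYB56 (background 10.4%), and MYB21 listed 3 (background 8.96%). NAC66 listed 2 (background 7.73%), Zm00001d003176 listed 1 (background 9.45%), NAC109 listed 1 (background 3.33%) and Zm00001d033859 listed 0 (background 3.35%).

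Which further regulators appear was set beside genes that only 1 of the WRKY factors lists and that also have 1 or 2 other regulators. There were 1315 such genes, 431 of WRKY36 and 884 of WRKY107, with 1977 further edges. NAC61 held 21.8% of the members' further edges and 19.4% of theirs. bZIP9 held 9.71% of the members' further edges and 13.9% of theirs. Orphan42 held 7.09% against 4.25%, MYB81 4.20% against 2.02%, and Zm00001d032024 7.61% against 5.67%. Split into the 431 genes of WRKY36 and the 884 of WRKY107, the MYB81 value was 3.37% and 1.36%. In the same order it was 3.37% and 4.68% for Orphan42, and 3.83% and 6.57% for Zm00001d032024. G2 held 6.30% against 8.55%, and MYB34 1.05% against 2.63%. In all, 10 regulators had a higher share among the members and 11 a lower one. The differences are of a few percentage points, and whether they exceed chance was not tested.

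**Figure D2:**
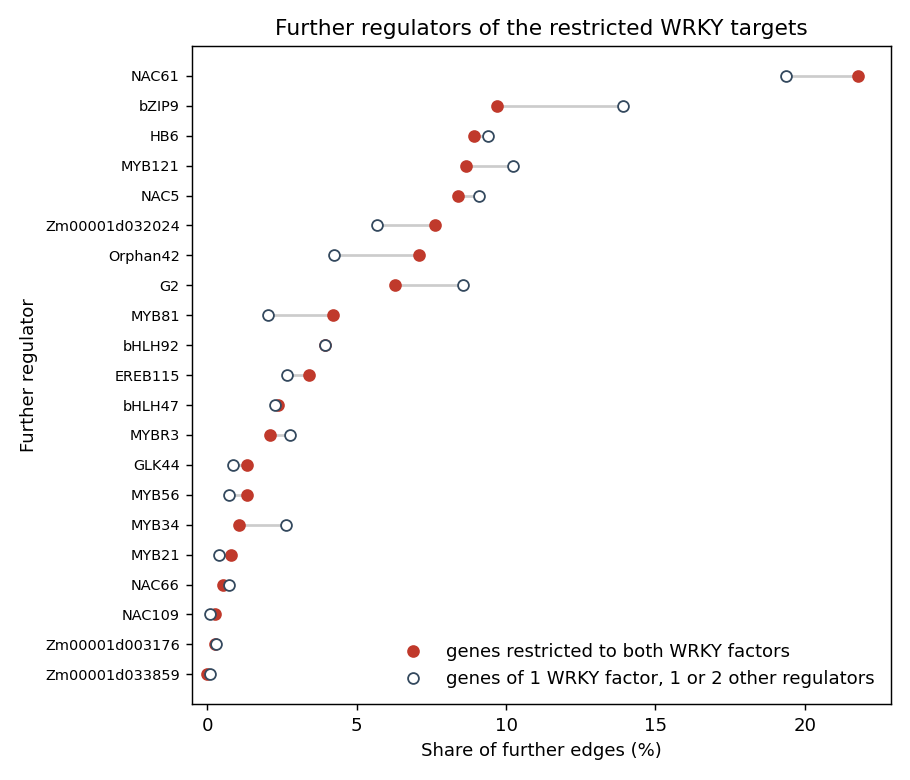
Share of further edges (horizontal axis, percent) held by each of the 21 other regulators (vertical axis, ordered by number of members). Filled red points are the 289 genes restricted to both WRKY factors, with 381 further edges, and open points are the 1315 genes of 1 WRKY factor with 1 or 2 other regulators. NAC61 lies farthest right in both sets, at 21.8% and 19.4%, while bZIP9 lies lower in the members, at 9.71% against 13.9%.

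The further regulators were spread over many combinations. The 113 members with 1 further regulator divided among 17 regulators, with NAC61 for 28, Zm00001d032024 for 12 and MYB121 for 11. The 134 members with 2 further regulators fell into 64 pairs of the 210 possible, and 37 of these pairs occurred in 1 member each. The most frequent pair was NAC5 and NAC61, in 15 members. They made up 11.2% of the members with 2 further regulators, against 5.59% of the 662 genes of 1 WRKY factor with 2 other regulators. These 662 genes pool both WRKY lists, and the pairs were not counted by list. In genes of 1 WRKY factor with 1 or 2 other regulators, NAC5 held 7.21% of further edges for WRKY36 and 10.0% for WRKY107. For NAC61 the values were 18.1% and 20%. HB6 with bZIP9 followed in 8 members (5.97%, against 6.04%), as did NAC61 with bZIP9 (5.97%, against 7.55%). NAC61 with bHLH92 was the further pair of 6 members (4.48%, against 2.27%), and NAC61 with Orphan42 of 5 (3.73%, against 1.36%). The shares of HB6 with bZIP9 and NAC61 with bZIP9 were thus no higher in the members, and none of these differences was tested.

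The further edges were also counted by batch. NAC61, NAC5 and bHLH92 were tested in the batch of WRKY107, and MYB121, MYB81 and bHLH47 in the batch of WRKY36. If each factor was compared with the empty vector libraries of its own batch, which the labels do not say, these lists share control libraries with a WRKY list. The 3 regulators of the batch of WRKY107 held 130 of the members' further edges (34.1%), against 34.5% for the genes of WRKY107 without WRKY36 and 28.2% for those of WRKY36 without WRKY107. The 3 of the batch of WRKY36 held 58 further edges (15.2%), against 12.2% for the genes of WRKY107 alone among the WRKY pair and 19.2% for those of WRKY36. Regulators of other batches held 163 (42.8%), against 47.0% for all genes of 1 WRKY factor with 1 or 2 other regulators. Regulators without a known batch held 30 (7.87%), against 6.07%. Over all edges of the other 21 regulators, the batch of WRKY107 held 22.1%, the batch of WRKY36 15.0%, other batches 54.0% and regulators without a known batch 8.88%. The part of shared empty vector libraries in these counts was not tested. WRKY36 and WRKY107 themselves do not share a batch.

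How many few-regulator targets other pairs share was described next. Over all pairs of the 23 regulators, the number of shared targets with at most 4 regulators ran from 0 to 812 with a median of 32, and the WRKY pair stood at position 15. Among the 170 pairs known to be of different batches, the number ran from 0 to 730 with a median of 38. The WRKY pair, with 289, stood at position 10 of these. NAC61 and bZIP9 stood first with 730, and HB6 and NAC61 followed with 488. Listed for the pair alone were 42 genes for WRKY36 and WRKY107, at position 16 of the 170, against a median of 4. A pair with longer lists has more genes to share, so these positions follow list length as well as sharing.

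Partners of similar list length in other batches give values beside the WRKY pair. For WRKY36, HB6 (6677 targets) shared 142 genes with at most 4 regulators and NAC5 (6045 targets) shared 129, against 289 for WRKY107 (6401 targets). NAC61, with a longer list of 8286, shared 272 with WRKY36. For WRKY107, MYB34 (4391 targets) shared 79 such genes, MYBR3 (4260 targets) shared 101 and Orphan42 (4002 targets) shared 155, against 289 for WRKY36 (4668 targets). Zm00001d032024, whose batch is unknown and whose list of 4696 is closest in length to that of WRKY36, shared 185 with WRKY107. Among longer lists of other batches, G2 (5569 targets) shared 215 with WRKY107 and MYB121 (6491 targets) shared 256. HB6 (6677 targets) shared 281 with WRKY107 and bZIP9 (8080 targets) shared 408. As a share of all genes in common, the few-regulator genes were 9.81% for the WRKY pair, 9.63% for WRKY36 with NAC61 and 11.5% for WRKY107 with bZIP9. For WRKY107 the share was 8.89% with HB6, 8.80% with MYB121, 8.63% with G2 and 8.11% with Orphan42. The share was 4.34% with MYBR3 and 3.28% with MYB34. Over the 170 pairs known to be of different batches its median was 2.95%, and the WRKY pair stood at position 16. At the limit of 4 regulators, the WRKY pair was thus highest for WRKY36 by number among partners of other batches. For WRKY107 it was second to bZIP9. By genes listed for the pair alone, NAC61 stood above WRKY107 as a partner of WRKY36 (47 against 42). On that count bZIP9 (65) and G2 (49) stood above WRKY36 as partners of WRKY107. The WRKY pair was chosen as a pair, so these orders are a description.

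**Figure D3:**
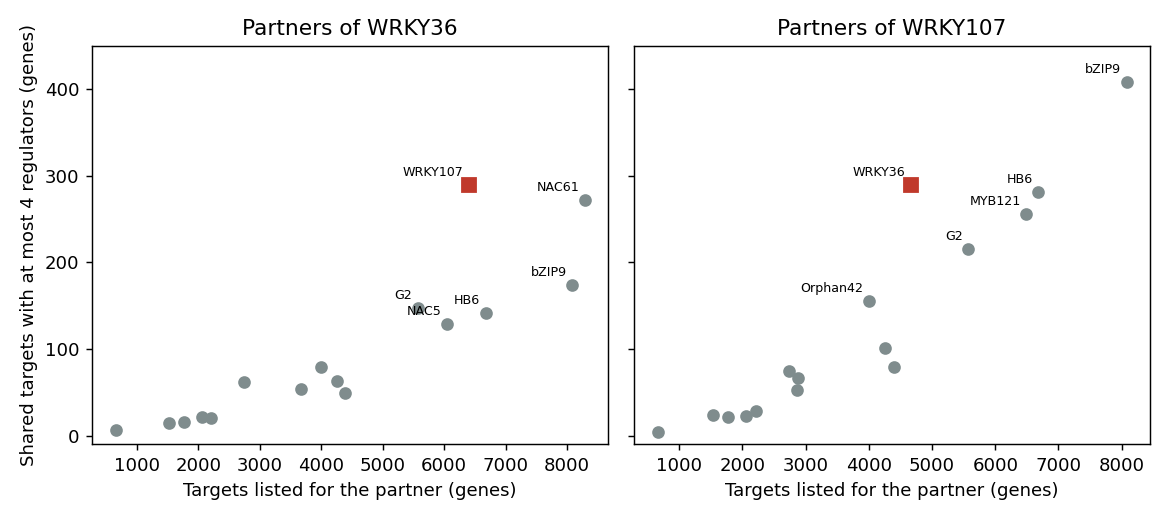
Number of shared targets with at most 4 regulators (vertical axis, genes) against the length of the partner's list (horizontal axis, genes), for partners of WRKY36 (left) and of WRKY107 (right) known to be of another batch. The red square is the other WRKY factor, at 289 genes in both panels. It lies above HB6 (142) and NAC5 (129) on the left, and on the right above HB6 (281) and below bZIP9 (408).

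Row order was not used to choose the members, and the rule that orders the rows of the authors' deposited table is unknown. Rows of 1 regulator that follow each other without a break form a run, and there are 42 runs. WRKY36 has 1 run of 4668 rows, with its own gene in row 237. WRKY107 has 2 runs, 1 of 2110 rows that opens with its own gene and 1 of 4291 rows without it. A single run was also found for MYB81, bHLH47 and MYB121, so all 4 regulators of the batch of WRKY36 have 1, as do NAC109 and Zm00001d032024. The list of G2, which has libraries in more than a single batch, has 4 runs, and which batch each came from is not stated. Nothing in the labels or the header says what a run means, for example a direction or a nitrogen condition.

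Of the 289 members, 88 (30.4%) stood in the WRKY107 run with its own gene and 201 in the other. The share was 33.0% over the whole WRKY107 list and 30.6% over the 1640 few-regulator targets of WRKY107 that WRKY36 did not list. The members thus divided between the runs much as those targets did. By number of regulators, 10 of 42, 33 of 113 and 45 of 134 members stood in the run with the own gene at 2, 3 and 4 regulators. Among genes of both WRKY factors with at least 12 regulators it was 43.8%, and with at least 18 it was 60.1%. Because WRKY36 has a single run, no agreement of runs between the WRKY factors could be read.

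For further regulators with 2 runs in other batches, the kind of run could be set beside that of WRKY107. Of the 37 members listed for bZIP9, 10 stood in the run with the own gene for both regulators, 10 in the run without it for both, and 17 in runs of different kinds. For HB6 it was 1, 17 and 16 of 34, for Orphan42 4, 9 and 14 of 27, and for EREB115 4, 1 and 8 of 13. Runs of the same kind thus held 54.1% of the members for bZIP9, against 45.4% of all genes that bZIP9 shares with WRKY107. The corresponding values were 52.9% against 59.6% for HB6, 48.1% against 48.6% for Orphan42 and 38.5% against 42.4% for EREB115. Over the 10 regulators that allowed it, 72 of 138 member edges (52.2%) were in runs of the same kind as WRKY107, against 51.9% over all genes these regulators share with WRKY107.

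The members stood late in the WRKY36 run and in the WRKY107 run without the own gene. In the WRKY107 run with the own gene they stood near the middle. In the WRKY36 run their median position was 69.3% of the way down (quartiles 51.2% and 86.5%, n = 289), against 35.0% for the 2658 shared genes with at least 5 regulators. The 760 few-regulator targets of WRKY36 outside the WRKY107 list stood later still, at 76.5%. In the WRKY107 run with its own gene the median of the 88 members was 53.3% (quartiles 29.8% and 80.6%). It was 28.6% for shared genes with at least 5 regulators, and few-regulator targets outside the WRKY36 list stood later than the members. In the other WRKY107 run the medians were 65.8% for the 201 members, 28.2% for shared genes with at least 5 regulators and 71.9% for few-regulator targets outside the WRKY36 list. In each of the 3 runs, the median of all members therefore lay between that of shared genes with at least 5 regulators and that of few-regulator genes of 1 WRKY list. The latter include genes of a single regulator, which no member can be. Members listed for the WRKY pair alone had a median of 80.9% in the WRKY36 run (n = 42). Their median was 73.8% in the WRKY107 run without the own gene (n = 32) and 48.4% in the run with it (n = 10).

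Members past the 50% mark in both lists numbered 161 (55.7%), against 17.5% of all genes of both WRKY factors. Within the first 25% of both were 6 members (2.08%), against 672 of the 2947 shared genes (22.8%). In the WRKY36 run, shared genes with at least 12 regulators had a median of 21.5% and those with 5 had 60.0%. Members differ from all shared genes in number of regulators by the choice, and genes of like number were not counted here. Within the first 10% of both lists was 1 member, Zm00001d009557 (0.35%), against 220 shared genes (7.47%). That gene was listed for the WRKY factors alone and stood in row 259 for WRKY36 and row 14 of the WRKY107 run with the own gene. Next among genes of the WRKY pair alone came Zm00001d048520, in row 733 for WRKY36 and row 18 of the same WRKY107 run. Neither gene has a name in the sources used here. The correlation of positions in the WRKY lists was lower among members than among all shared genes. Spearman's rho was 0.37 for the 88 members of the run with the own gene, where all 1058 shared genes gave 0.53. In the other run it was 0.13 for 201 members and 0.41 for 1889 shared genes. Members and all shared genes cover different stretches of the runs, which can change rho by itself. The points also share libraries, so the values are descriptive.

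**Figure D4:**
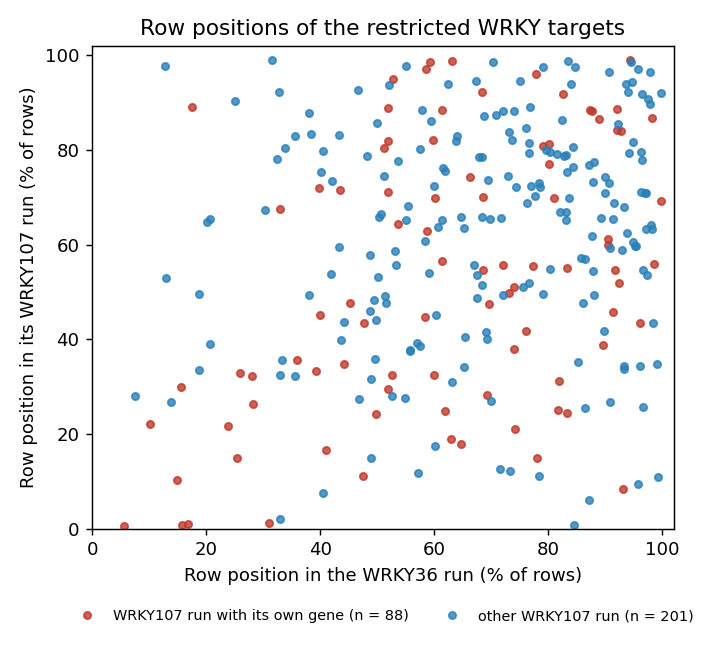
Row position of each of the 289 members in the WRKY36 run (horizontal axis, percent of rows) and in its WRKY107 run (vertical axis, percent of rows). Red points are the 88 members of the WRKY107 run with its own gene and blue points the 201 of the other run. Most points lie in the upper right, 161 of them past 50% in both lists, and 1 member, Zm00001d009557, lies within the first 10% of both.

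Consecutive gene numbers, which adjacent genes often carry, occurred in 1 pair of members, Zm00001d016080 and Zm00001d016081. Over all 19787 listed genes there were 8954 such pairs, but a smaller set holds fewer of them, so these counts are not compared. Zm00001d016081 was listed for the WRKY factors alone, and Zm00001d016080 also for HB6 and MYB81. Both stood in the WRKY107 run without the own gene, at positions of 78.2% and 53.9%. Gene numbers at most 5 apart occurred in 5 pairs of members, and in 17726 pairs over all listed genes. With names for 0 of the 289 members, no pathway or gene family could be described for them.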

How the data were processed

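The authors deposited 1 table of 94256 rows with text identifiers only (a regulator, a target and both joined; unit "other"), of which 92485 edges are distinct. The submitters' processing notes name featureCounts and edgeR and the build B73 RefGen_v4. Versions, thresholds and the handling of nitrogen and batch are not stated there. Distinct edges were counted for the 23 regulators, and 20 were matched to plasmid and batch by the identifier in sample titles. Replicates enter no value, and whether they came from separate preparations is not stated. The members and all comparisons were chosen with earlier results of these data known. No test was run. A run is a stretch of consecutive rows of 1 regulator, and a position is the row divided by the run's length. The reference gene table (assembly Zm-B73-REFERENCE-NAM-5.0) matched 0 of 289 members and 5 of 19787 listed genes. The rule for named genes asked for named members, regulators, members high in both lists, neighbours and members of the most frequent further pair. With no names, 4 member identifiers are printed. Keyword groups were void because under 80% of members had an annotation. The counting was tested on simulated data. Software was Python 3.11.15 with pandas 2.3.3, scipy 1.17.1, numpy 2.4.6 and, for plots, matplotlib 3.10.9.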

Additional observations from a re-analysis of the deposited data

How the results depend on the processing

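The 289 members became 42 with at most 2 regulators and 155 with at most 3, fewer by construction, and 425 with at most 5. Leaving out the other regulators of each of 9 batches in turn gave 294 to 446 members, more by construction, with 446 when NAC61, NAC5 and bHLH92 of the batch of WRKY107 were left out. Without the longer run of Zm00001d003176, whose genes also stand in the MYB56 list, there were 292, and without the 3 unmatched regulators 317. The position of the WRKY pair was 13 to 22 over the alternatives among all pairs, and 10 among the pairs of different batches, an alternative added after seeing the data. The share of members in the WRKY107 run with the own gene fell from 30.4% to 23.8% with at most 2 regulators, and the cause was not tested. NAC61 held 19.6% to 24.8% of further edges. Member pairs with gene numbers at most 5 apart were 5 in place of 1. The alternatives for row position and for further edges by batch were also added after seeing the data, and moved the median position in the WRKY36 run to at most 80.9%. Leaving out replicates was not run. No paired analysis was possible because no deposited value belongs to a single library. Which edges reach the list depends on depth, which is unknown.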
